A study of Mus musculus with 8 samples.

Results

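Surface molecules that mark stages of B cell development were followed in pre-B cells and in their multipotent precursors. The 9 genes were Ms4a1 (CD20), Cd22, Cr2 (CD21 and CD35), Fcer2a (CD23), Cd24a, Il2ra (CD25), Spn (CD43), Cd93 and Cd40. They were picked by name as stage markers. All 9 were among the 11871 genes tested in pre-B cells, and all 9 were among the 17769 genes to which at least 1 accessible region of LSK cells was annotated. Transcripts were measured by RNA-seq in bone marrow pre-B cells sorted by surface markers, B220+ and IgM- among them, in 2 WT and 2 Dido1∆E16 libraries, each made from a pool of mice. Open chromatin was measured by Omni-ATAC-seq in bone marrow LSK cells (Lin- Sca-1+ cKit+ IL7R-), which include the hematopoietic stem cells, in 2 libraries per genotype. Dido1∆E16 mice were Dido1 flE16/∆E16; R26R-EYFP; iCre Vav1, so that the Vav1 promoter drove Cre in the hematopoietic lineage and removed exon 16, the last exon of the Dido3 isoform, from the floxed allele. The controls, called WT, were Dido1 flE16/+; R26R-EYFP; iCre Vav1 littermates. They carried Cre, the reporter and 1 floxed allele as well, and kept 1 intact allele. All mice were on a C57BL/6 background. The study's methods state that mice were matched for sex and age. One of its figure legends describes the mice of both assays as male and of different ages.

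Developing B cells change their surface in a set order. CD43, a sialomucin, and CD93, a C-type lectin-like receptor, mark early precursors, and CD43 is lost when pro-B cells become pre-B cells. CD24, a small glycosylphosphatidylinositol-anchored protein, is high on precursors, and CD25, the alpha chain of the IL-2 receptor, appears on pre-B cells. CD20 and CD22 come up as cells mature, CD22 as an inhibitory lectin that dampens the B cell receptor. CD40, the receptor for the T cell ligand CD154, CD21, the receptor for complement fragments, and CD23, the low-affinity IgE receptor, belong mostly to mature cells, and CD21 and CD23 are used to tell follicular from marginal zone cells.

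The 4 pre-B libraries held 1121 to 1635 megabases of aligned sequence over the listed transcripts. The 4 LSK libraries held 10249256 to 52050898 tags, with 27352 and 57739 MACS2 peaks in WT and 13208 and 16329 in Dido1∆E16. The terminal Dido1 segment, 4621 bases that only the longest listed transcript uses, had a scaled coverage of 24.6 and 21.8 in WT against 0.295 and 0.0843 in Dido1∆E16, which matches the labels. The summed Dido1 level was 44.3 and 46.0 TPM in WT and 81.6 and 87.2 TPM in Dido1∆E16 (log2 fold change 0.89 ± 0.13 SE, limma adjusted p = 0.19). Ptprc, which encodes B220, was at 257 to 336 TPM, and 7 of 12 T and NK cell genes, Cd3e among them, were listed at 0 in all 4 libraries. Of the others, Lck was at 12.6 to 22.3 TPM, Klrb1c at 3.30 to 7.37 TPM and Cd3d at most at 2.36 TPM. Thy1 was at 0 and 0 TPM in WT and 3.22 and 3.68 TPM in Dido1∆E16. Nkg7 was above 0 only in Dido1∆E16 replicate 2, at 16.3 TPM. Markers of neutrophils and monocytes summed to 266 and 2247 TPM in WT and 1117 and 9780 TPM in Dido1∆E16, and markers of erythroid cells to 342, 955, 764 and 8799 TPM in the same order. Dido1∆E16 replicate 2 therefore stood apart in both lists, and values without it are given where they matter. In LSK cells, 8 and 10 of 10 LSK marker genes had a peak in WT and 6 and 6 in Dido1∆E16.

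In pre-B cells the 9 genes ran from 2.83 to 2527 TPM in the WT mean, TPM being a length-scaled share of a library's transcripts. Cd24a was by far the most abundant, at 2527 ± 146 TPM in WT (SD, n = 2), above 99.8% of the genes tested. Ms4a1 at 344 ± 78.2 TPM, Cd93 at 328 ± 49.5 TPM and Il2ra at 269 ± 0.691 TPM came next. The ranges of Ms4a1 and Cd93 overlapped in both genotypes, so their order is not resolved. Cd22 followed at 160 ± 16.1 TPM, then Cd40 at 74.9 ± 29.99 TPM and Fcer2a at 64.6 ± 1.43 TPM, whose WT ranges overlapped. Spn lay at 33.9 ± 17.6 TPM and Cr2 at 2.83 ± 1.26 TPM, above only 13.1% of the genes tested. In Dido1∆E16 cells Cd40 and Fcer2a no longer overlapped, and Fcer2a and Spn did.

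**Figure D1:**
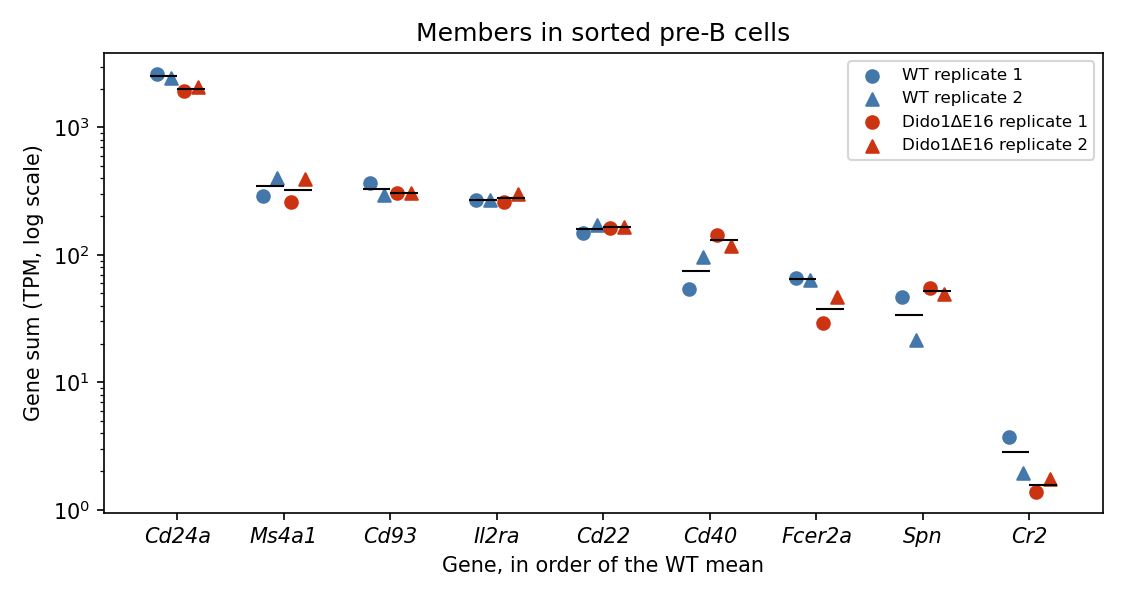
Summed TPM of each gene in each pre-B library on a log axis, with blue for WT, red for Dido1∆E16, circles for replicate 1, triangles for replicate 2 and black lines for the means of 2 libraries. Cd24a lies highest and Cr2 lowest, and the colours separate for Cd40 and Spn upwards and for Fcer2a, Cd24a and Cr2 downwards.

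None of the 9 genes passed the test for a difference between genotypes (limma, with the adjusted p below 0.05 and the log2 fold change 0.6 or more in size), a call that 0.0505% of all genes tested met. At an unadjusted p under 0.05 there was 1 of the 9, Fcer2a, beside 11.7% of all genes, and limma without a trend also called 0 of the 9. Cd40 and Spn lay higher in each Dido1∆E16 library than in either WT library, an order that 27.1% of all genes showed. Fcer2a, Cd24a and Cr2 lay lower in both, an order that 15.6% of all genes showed. The median log2 fold change of the 9 genes was -0.10, against 0.07 for all genes tested. After centring each library on its median, 2 of the 9 lay higher and 4 lower, and the shares of all genes became 21.001% and 22.8%. In sorted bulk samples, fewer cells of a type and less RNA per cell cannot be told apart. Nothing says whether the pools shared mice or days, so the p-values measure the spread between these libraries.

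**Figure D2:**
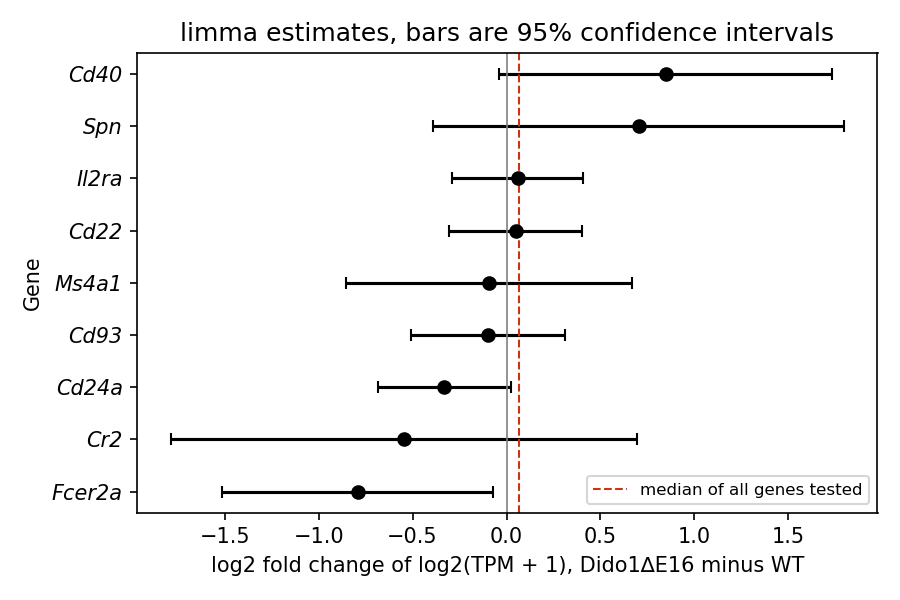
The limma log2 fold change of each gene (Dido1∆E16 minus WT, on log2(TPM + 1)) with its 95% confidence interval, the grey line at 0 and the dashed red line at the median of all genes tested. The interval of Fcer2a, from -1.52 to -0.07, is the only one of the 9 that leaves out 0.

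Fcer2a encodes CD23. Its level was 65.6 and 63.6 TPM in WT and 29.1 and 46.7 TPM in Dido1∆E16. Both Dido1∆E16 libraries lay below both WT libraries, and the 2 WT libraries were close together. The log2 fold change was -0.79 ± 0.27 (SE, 95% interval -1.52 to -0.07), with an unadjusted p of 0.038 and an adjusted p of 0.389 by limma. Without Dido1∆E16 replicate 2 it was -1.13, and over the fits that left out 1 library it ran from -1.13 to -0.46.

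The gene lies on the minus strand at chr8:3681737-3694174 (mm10), and RefSeq places 3 starts in it. The 250 bases before each start are shown because the deposited files divide the reads among transcripts from different starts. Capitals mark matches, on either strand, to the E-boxes CAGCTG and CAGGTG, which E2A binds, to GAGGAA (PU.1), TGTGGT (RUNX), CCCNNGGG (EBF1) and TTCNNNGAA (STAT factors). Sequences are from RefSeq, GRCm38.p6, printed 5′ to 3′.
Fcer2a outer start, chr8:3694175-3694424, minus strand: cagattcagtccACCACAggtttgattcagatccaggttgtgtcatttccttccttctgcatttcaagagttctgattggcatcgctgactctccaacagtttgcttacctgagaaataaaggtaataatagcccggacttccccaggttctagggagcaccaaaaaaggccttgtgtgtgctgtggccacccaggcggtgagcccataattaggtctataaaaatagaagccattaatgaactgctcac
Fcer2a middle start, chr8:3690862-3691111, minus strand: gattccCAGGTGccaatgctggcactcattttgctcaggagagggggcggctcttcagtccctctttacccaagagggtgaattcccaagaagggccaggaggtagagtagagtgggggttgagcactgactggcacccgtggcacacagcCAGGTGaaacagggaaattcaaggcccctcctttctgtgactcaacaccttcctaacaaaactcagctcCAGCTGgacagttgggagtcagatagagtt
Fcer2a inner start, chr8:3690391-3690640, minus strand: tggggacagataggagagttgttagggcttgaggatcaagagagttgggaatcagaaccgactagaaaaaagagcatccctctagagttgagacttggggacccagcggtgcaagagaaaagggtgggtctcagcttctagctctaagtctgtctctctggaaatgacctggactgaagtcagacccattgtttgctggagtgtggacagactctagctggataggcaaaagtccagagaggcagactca
The window before the outer start held 1 match, to TGTGGT, which 14.0% of 32851 promoter windows of the same length held. The window before the middle start held 1 CAGCTG (13% of windows) and 2 CAGGTG (17.2%). The window before the inner start held none of the 6 motifs. The other motifs were in 23.3% (GAGGAA), 11.8% (CCCNNGGG) and 7.02% (TTCNNNGAA) of the promoter windows.

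In WT nearly all Fcer2a signal was assigned to transcripts from the outer start. The transcript uc009ksn.1 was estimated at 61.5 and 63.6 TPM in WT and 24.9 and 25.8 TPM in Dido1∆E16. Its groups were far apart relative to their spread (log2 fold change -1.27 ± 0.13 SE, unadjusted p = 0.00111, limma adjusted p = 0.159), and it was still not called. Among the 15 tested transcripts of the 9 genes 0 were called, beside 0.153% of all transcripts tested. The transcript uc009ksl.1, from the inner start, was estimated at 2.19 and 0 TPM in WT and 3.52 and 20.9 TPM in Dido1∆E16. The exon that only uc009ksl.1 uses, its first, had a scaled coverage of 5.43 and 0 in WT and 1.54 and 0 in Dido1∆E16, so the 20.9 TPM in Dido1∆E16 replicate 2 came with no coverage of that exon. The exon at the middle start was at 0 in all 4 libraries. Scaled coverage is the exon coverage multiplied by the library's ratio of TPM to coverage. Over the 17 exon segments of the gene, 10 lay lower in both Dido1∆E16 libraries and 0 lay higher. The first exon overlapped between genotypes, at 22.3 and 17.5 in WT and 10.8 and 20.5 in Dido1∆E16. The last segment, 1272 bases long, did not, at 78.1 and 82.6 in WT and 37.4 and 58.7 in Dido1∆E16.

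**Figure D3:**
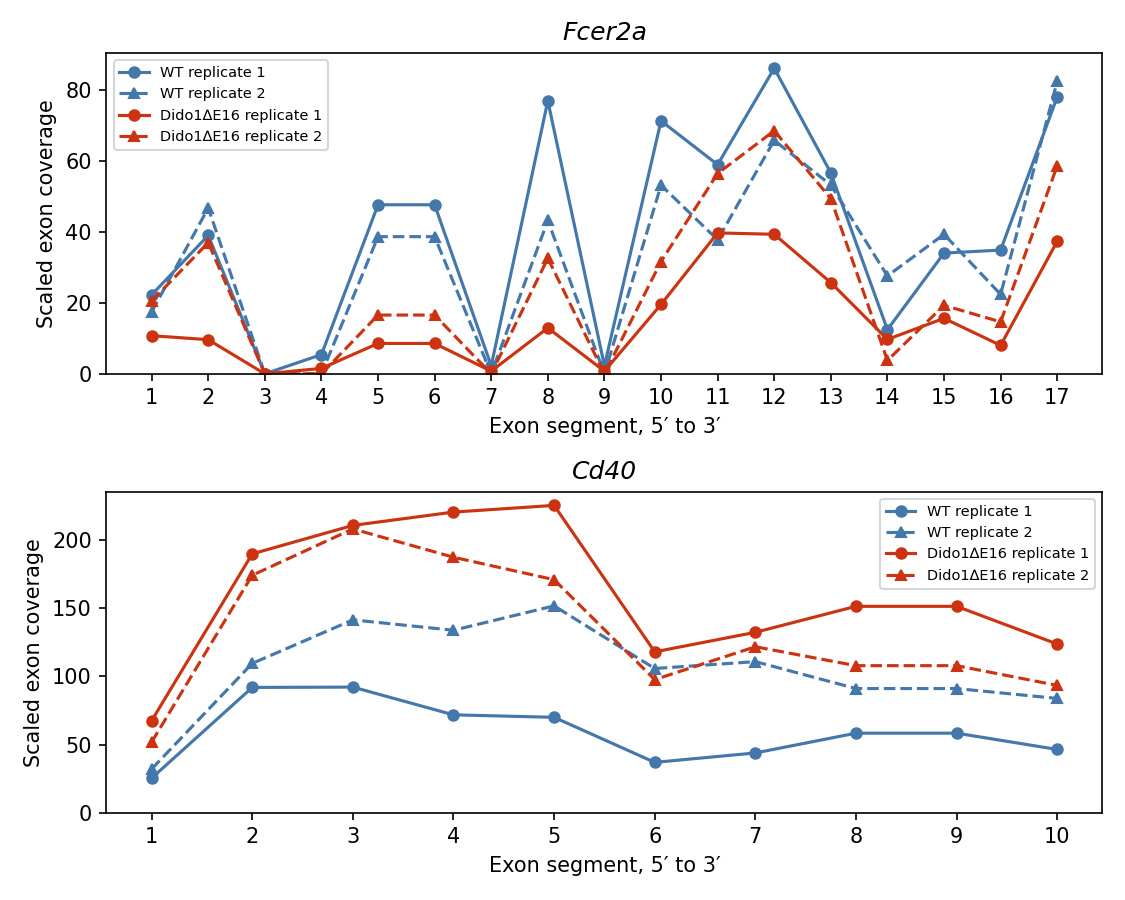
Scaled exon coverage of Fcer2a (top) and Cd40 (bottom) along the exon segments from 5′ to 3′, with WT in blue, Dido1∆E16 in red, circles and solid lines for replicate 1 and triangles and dashed lines for replicate 2. Red lies below blue in 10 of 17 Fcer2a segments and above it in 9 of 10 Cd40 segments.

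Cd40 showed the largest difference upwards among the 9 genes. Its level was 53.7 and 96.1 TPM in WT and 144 and 117 TPM in Dido1∆E16. The genotypes did not overlap, but the WT libraries differed from each other by more than WT replicate 2 did from Dido1∆E16 replicate 2. The log2 fold change was 0.85 ± 0.33 (SE, 95% interval -0.04 to 1.73, limma adjusted p = 0.449). It ran from 0.43 to 1.26 when 1 library was left out, and was 0.99 without Dido1∆E16 replicate 2. All of the Cd40 level was assigned to 1 of 4 listed transcripts, uc008nwy.1 at chr2:165055636-165071654 on the plus strand. Of the 10 exon segments, 9 lay higher in both Dido1∆E16 libraries, and the sixth overlapped. Among 12 genes of CD40 signalling, 10 were tested and 0 were called. Nfkb2, the p100 precursor of the non-canonical NF-kB pathway, was at 131 and 125 TPM in WT and 300 and 318 TPM in Dido1∆E16 (log2 fold change 1.26 ± 0.11 SE, adjusted p = 0.154). Traf3, an adaptor that restrains that pathway, was at 31.6 and 24.7 TPM in WT and 40.2 and 41.9 TPM in Dido1∆E16 (log2 fold change 0.54). Traf5, another adaptor of the receptor, was at 135 and 142 TPM in WT and 105 and 91.9 TPM in Dido1∆E16 (log2 fold change -0.49). Cd40lg, the ligand, was listed at 0 in all 4 libraries.

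Spn encodes CD43, which the stated gate of the RNA-seq sort did not use. Its level was 46.3 and 21.4 TPM in WT and 54.9 and 49.2 TPM in Dido1∆E16. Both Dido1∆E16 libraries lay above both WT libraries, but WT replicate 1 was close to them and WT replicate 2 was low. The log2 fold change of 0.70 ± 0.40 (SE, limma adjusted p = 0.607) became 0.16 without WT replicate 2 and 1.24 without WT replicate 1. Without Dido1∆E16 replicate 2 it was 0.78. Of 8 exon segments, 5 lay higher in both Dido1∆E16 libraries and 0 lower. Of 12 genes of pro-B and large pre-B cells 11 were tested and 0 were called. At an unadjusted p under 0.05, 7 of the 11 lay higher and 0 lower, beside 1024 of 11871 genes higher and 359 lower. Il7r, Mki67 and Top2a overlapped between genotypes. The WT libraries differed widely in the last 2, with both Dido1∆E16 libraries between them. Mki67 was at 228 and 25.0 TPM in WT and 86.3 and 139 TPM in Dido1∆E16, and Top2a at 503 and 45.7 TPM in WT and 189 and 255 TPM in Dido1∆E16. The median log2 fold change of the 11 was 2.34, against 0.07 for all genes tested. The summed level of the list was 6163 and 6022 TPM in WT and 9258 and 8111 TPM in Dido1∆E16. Of the genes for the surrogate light chain, Vpreb1 was at 108 and 40.9 TPM in WT and 1222 and 738 TPM in Dido1∆E16 and Vpreb2 at 27.1 and 8.76 TPM in WT and 382 and 168 TPM in Dido1∆E16. The log2 fold change was 3.81 for Vpreb1 and 3.94 for Vpreb2, but 2.37 for Igll1, the lambda 5 part of the surrogate light chain, and 0.22 for Vpreb3. It was 2.76 for Dntt, the terminal transferase of pro-B cells. Enpep, the aminopeptidase BP-1 of large pre-B cells, was at 8.59 and 8.29 TPM in WT and 93.8 and 63.7 TPM in Dido1∆E16. Of these genes Igll1, Vpreb3, Dntt, Il7r, Mki67 and Top2a were named after their values were seen. The part of the list in the values of the 9 was not tested.

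Cd24a was at 2631 and 2424 TPM in WT and 1942 and 2075 TPM in Dido1∆E16. The groups did not overlap, and the difference was small (log2 fold change -0.33 ± 0.13 SE, 95% interval -0.69 to 0.03, limma adjusted p = 0.460). It ran from -0.39 to -0.27 when 1 library was left out. The first exon overlapped between genotypes (836 and 685 in WT, 685 and 686 in Dido1∆E16), and the second, at 2797 and 2585 in WT and 2058 and 2204 in Dido1∆E16, did not. Red cell precursors also carry CD24, and the erythroid markers were highest in Dido1∆E16 replicate 2. Without that library the log2 fold change was -0.38, and the part of such cells in the value was not tested.

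Cr2 was close to the limit of detection. It was at 3.72 and 1.94 TPM in WT and 1.38 and 1.73 TPM in Dido1∆E16, and WT replicate 2 lay close to the Dido1∆E16 libraries. The aligned sequence behind these values was 14.4 and 5.63 kilobases in WT and 5.58 and 4.96 kilobases in Dido1∆E16, against 2969 and 2055 kilobases for Cd24a in WT. The log2 fold change of -0.55 ± 0.45 (SE, limma adjusted p = 0.691) was not distinguishable from 0 at this depth. It became -0.21 without WT replicate 1 and -0.89 without WT replicate 2. Of 22 exon segments 5 lay lower in both Dido1∆E16 libraries. On FPKM the gene no longer passed the filter on low values.

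The other 4 genes overlapped between genotypes. Il2ra was at 269 and 268 TPM in WT and 261 and 301 TPM in Dido1∆E16 (log2 fold change 0.06, 95% interval -0.29 to 0.41). Of its 9 exon segments, 6 lay higher in both Dido1∆E16 libraries and 1 lower. Its full-length transcript uc008iiq.2 carried most of its level, and the short uc008iip.2, which ends in the first intron of the full-length form, was at 13.1 and 40.6 TPM in WT and 12.4 and 11.1 TPM in Dido1∆E16. Cd22 was at 148 and 171 TPM in WT and 164 and 166 TPM in Dido1∆E16 (log2 fold change 0.05, 95% interval -0.31 to 0.40). Ms4a1 was at 289 and 400 TPM in WT and 260 and 390 TPM in Dido1∆E16. Its replicates differed more than its genotypes, and the interval of its log2 fold change, -0.86 to 0.67, is correspondingly wide. Cd93 was at 363 and 293 TPM in WT and 304 and 306 TPM in Dido1∆E16 (log2 fold change -0.10, 95% interval -0.51 to 0.31). Without Dido1∆E16 replicate 2 the log2 fold change of Cd93 was also -0.10. Its 2 exons went opposite ways. The first, of 2021 bases, had a scaled coverage of 191 and 157 in WT and 218 and 246 in Dido1∆E16, and the second, of 4617 bases, 439 and 353 in WT and 341 and 332 in Dido1∆E16. The StringTie level of Cd93 averages over both.

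The partners of these receptors were read from lists chosen with earlier results of these data known. Among all 11871 genes tested, 1024 lay higher and 359 lower at an unadjusted p under 0.05 by limma. The counts of each list here and in the next paragraph are to be read beside these. Of 39 tested surface molecules of other B cell stages 0 were called, 4 lay higher and 3 lower at an unadjusted p under 0.05, and the median log2 fold change was 0.02. The largest changes were those of Enpep, of Kit, the stem cell factor receptor (1.63 and 0.599 TPM in WT, 9.74 and 9.06 TPM in Dido1∆E16), and of Icosl, the ICOS ligand (16.7 and 16.1 TPM in WT, 5.12 and 5.13 TPM in Dido1∆E16). Among 6 tested genes of the IL-2 receptor 0 were called, 3 lay higher at an unadjusted p under 0.05, and the median was 0.32. Stat5a, a transcription factor downstream of the receptor, was at 32.2 and 31.8 TPM in WT and 52.7 and 55.3 TPM in Dido1∆E16, and the kinase Jak3 at 28.7 and 21.5 TPM in WT and 35.1 and 43.3 TPM in Dido1∆E16. Il15ra was at 13.8 and 12.9 TPM in WT and 11.9 and 6.98 TPM in Dido1∆E16. Il2 itself was listed at 0 in all 4.

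Of 10 tested genes around CD22 and other inhibitory receptors 0 were called and 1 lay lower at an unadjusted p under 0.05. That was Fcgr2b, the inhibitory IgG receptor, at 109 and 145 TPM in WT and 79.4 and 77.6 TPM in Dido1∆E16. Cd72 was at 987 and 1264 TPM in WT and 898 and 663 TPM in Dido1∆E16, and Pirb overlapped, at 10.2 to 27.8 TPM. Of 6 tested genes around CD21 0 were called or had an unadjusted p under 0.05. The changes of Ifitm1, listed at 0 in WT replicate 2, of C3, at 46.3 TPM in Dido1∆E16 replicate 2 and at most 4.62 TPM elsewhere, and of Cd55, at 122 to 222 TPM, were the largest there. Of 7 tested partners of CD43, CD23 and CD24 0 were called and 1 lay higher at an unadjusted p under 0.05, Selplg, the P-selectin ligand (291 and 252 TPM in WT, 369 and 363 TPM in Dido1∆E16). Ezr and Adam17 had log2 fold changes of 0.20 and 0.18. In the Ms4a family 5 of 9 genes were tested and 0 called, and Ms4a4c (16.4 and 15.4 TPM in WT, 6.13 and 9.83 TPM in Dido1∆E16) had an unadjusted p of 0.031, while Ms4a3 and Ms4a4b rested on levels of 0 in some libraries. Of 12 tested mature B cell genes 0 were called, 2 lay higher and 3 lower at an unadjusted p under 0.05. Ltb, lymphotoxin beta, was at 154 and 155 TPM in WT and 604 and 670 TPM in Dido1∆E16 (log2 fold change 2.03 ± 0.12 SE, adjusted p = 0.071), Cd74 at 2687 and 2665 TPM in WT and 3724 and 4389 TPM in Dido1∆E16, and Cd83, an activation marker, at 13.9 and 29.8 TPM in WT and 7.02 and 8.46 TPM in Dido1∆E16. Of 4 tested plasma cell genes 0 were called and 1 lay lower at an unadjusted p under 0.05. That was Sdc1, syndecan-1, at 121 and 102 TPM in WT and 64.4 and 57.0 TPM in Dido1∆E16. Irf4 was at 478 and 628 TPM in WT and 442 and 369 TPM in Dido1∆E16. Prdm1 overlapped, at 2.91 to 7.10 TPM, and so did Xbp1, named to complete the list, at 119 to 170 TPM (log2 fold change 0.16). Of 3 tested endothelial genes 0 were called and 1 lay higher at an unadjusted p under 0.05. That was Eng, endoglin, at 4.46 and 1.98 TPM in WT and 25.6 and 23.2 TPM in Dido1∆E16. Pecam1 was at 226 and 236 TPM in WT and 258 and 267 TPM in Dido1∆E16 (log2 fold change 0.19). Cdh5 overlapped, at 3.20 to 3.87 TPM (log2 fold change -0.008). Kdr, Tek and Emcn were listed at 0 in all 4 libraries.

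In LSK cells, which stand before B lineage commitment, the 9 genes differed widely in how many MACS2 peaks were annotated to them. Cd93 had 6 and 8 peaks in WT and 3 and 3 in Dido1∆E16. Il2ra had 3 and 6 in WT and 2 and 2 in Dido1∆E16. Cr2 had 4 and 6 in WT and 4 and 4 in Dido1∆E16. Cd24a had 2 and 2 in WT and 1 and 0 in Dido1∆E16, and Spn had 1 and 1 in WT and none in Dido1∆E16. Cd22 and Cd40 had 2 peaks each and Fcer2a had 1, all in WT replicate 2, the library with the most peaks. Ms4a1 had 1 peak, over its start, in Dido1∆E16 replicate 1 only.

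Thus 4 of the 9 genes, Cd93, Il2ra, Cd24a and Spn, had fewer MACS2 peaks in each Dido1∆E16 library than in either WT library, beside 35.6% of all genes with a peak, and 0 had more, beside 0.191%. The share of the 9 was near that of all genes. Together they held 16 and 28 peaks in WT and 11 and 9 in Dido1∆E16, which was 0.0585% and 0.0485% of all peaks in WT and 0.0833% and 0.0551% in Dido1∆E16. An exact two-sided permutation test of the sums gave p = 0.333, the smallest that 2 against 2 libraries allow. When each library contributed its 13208 best-scoring peaks, 0 of the 9 genes differed in order, beside 7.14% of all genes lower and 6.63% higher in both Dido1∆E16 libraries.

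**Figure D4:**
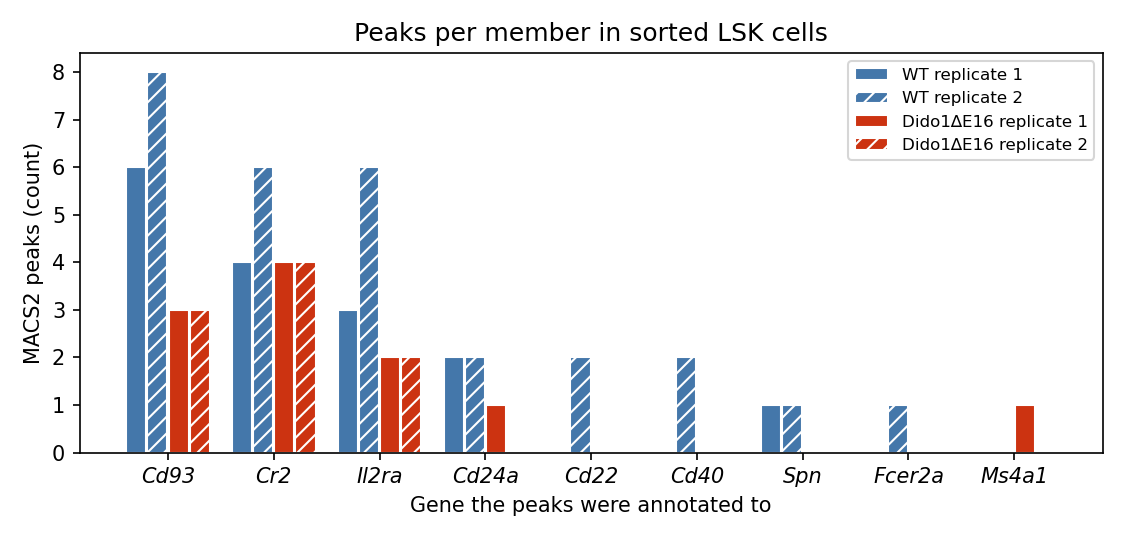
Number of MACS2 peaks annotated to each gene in each LSK library, as bars from 0, with WT in blue, Dido1∆E16 in red and hatching for replicate 2. Cd93, Il2ra, Cd24a and Spn have fewer peaks in both red libraries, and Cd22, Cd40 and Fcer2a have peaks in WT replicate 2 only.

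The MACS2 peaks merged into 30 regions, 16 of them distal intergenic, 7 intronic, 5 at promoters and 2 exonic. All 4 libraries had a peak in 7 of the 30. A WT peak but no Dido1∆E16 peak was found in 18, of which 13 rested on WT replicate 2 alone. Both WT libraries shared 15 intervals by at least 1 bp, and 5 of these had no Dido1∆E16 peak, beside 43.7% of all 26327 shared WT intervals. The 5 belonged to Cr2, Cd24a, Il2ra, Cd93 and Spn, and only the one of Spn was at a promoter. HOMER, the other peak caller, gave 14 such shared WT intervals for these genes, and 0 of them lacked a Dido1∆E16 peak of HOMER, beside 29.3% of all shared WT intervals of HOMER.

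The promoters of Cr2 and Cd93 were open in all 4 LSK libraries. The Cr2 promoter peak scored 109 and 285 in WT and 75 and 121 in Dido1∆E16 (the MACS2 score as deposited, which rises with the strength of the call), and that of Cd93 scored 58 and 171 in WT and 27 and 38 in Dido1∆E16. The Spn promoter peak scored 24 and 37 in the WT libraries, close to the lowest score of 10. At Cd24a a region over the start and first intron scored 52 and 40 in WT and 32 in Dido1∆E16 replicate 1. MACS2 made no call there in Dido1∆E16 replicate 2, while HOMER gave a peak in that library. At the Cd40 start only WT replicate 2 had a MACS2 peak, with a score of 44, and HOMER gave one in Dido1∆E16 replicate 1 as well. At the Ms4a1 start only Dido1∆E16 replicate 1 had a MACS2 peak, with a score of 24, and HOMER gave one in WT replicate 2 as well. The promoter of Il2ra had no MACS2 peak in any library, while a region 5.14 kb before its start scored 116 and 192 in WT and 90 and 46 in Dido1∆E16. RefSeq promoter windows were found for 5 of the 9 genes, Cd22, Cr2, Fcer2a, Il2ra and Spn. Those of Cr2, with a peak in every library, and Spn, with a MACS2 peak in WT only, are shown with capitals as above.
Cr2 promoter, chr1:195176720-195176969, minus strand: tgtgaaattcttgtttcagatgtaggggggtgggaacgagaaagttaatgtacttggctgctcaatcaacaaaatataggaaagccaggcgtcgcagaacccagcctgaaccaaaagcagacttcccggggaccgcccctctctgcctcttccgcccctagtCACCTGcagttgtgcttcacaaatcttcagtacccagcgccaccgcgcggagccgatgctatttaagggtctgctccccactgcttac
Spn promoter, chr7:127137824-127138073, minus strand: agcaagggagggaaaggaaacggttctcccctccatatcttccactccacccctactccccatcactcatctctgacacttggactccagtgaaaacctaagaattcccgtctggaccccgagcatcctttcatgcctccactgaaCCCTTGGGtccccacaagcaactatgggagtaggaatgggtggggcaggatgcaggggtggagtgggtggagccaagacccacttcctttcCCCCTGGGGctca
The Cr2 window held 1 match to CAGGTG, on the opposite strand, and the Spn window held 3 matches to CCCNNGGG, of which 2 overlapped each other.

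The outermost region annotated to Cr2, 194.9 kb before its start, behaved unlike the others. Its MACS2 scores were 416 and 433 in WT and 539 and 473 in Dido1∆E16, the highest of all 30 regions and not lower in Dido1∆E16. HOMER gave a peak there in WT replicate 2 only. The region lies where the assembled sequence of chromosome 1 ends, and its shared interval of 406 bases runs past the last called base by 75. Repeats masked in the assembly made up 81.5% of it, against a median of 5.77% over all shared WT intervals. Cr2 is the gene annotated to it as the nearest. Without this region Cr2 had 3 and 5 peaks in WT and 3 and 3 in Dido1∆E16.

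**Figure D5:**
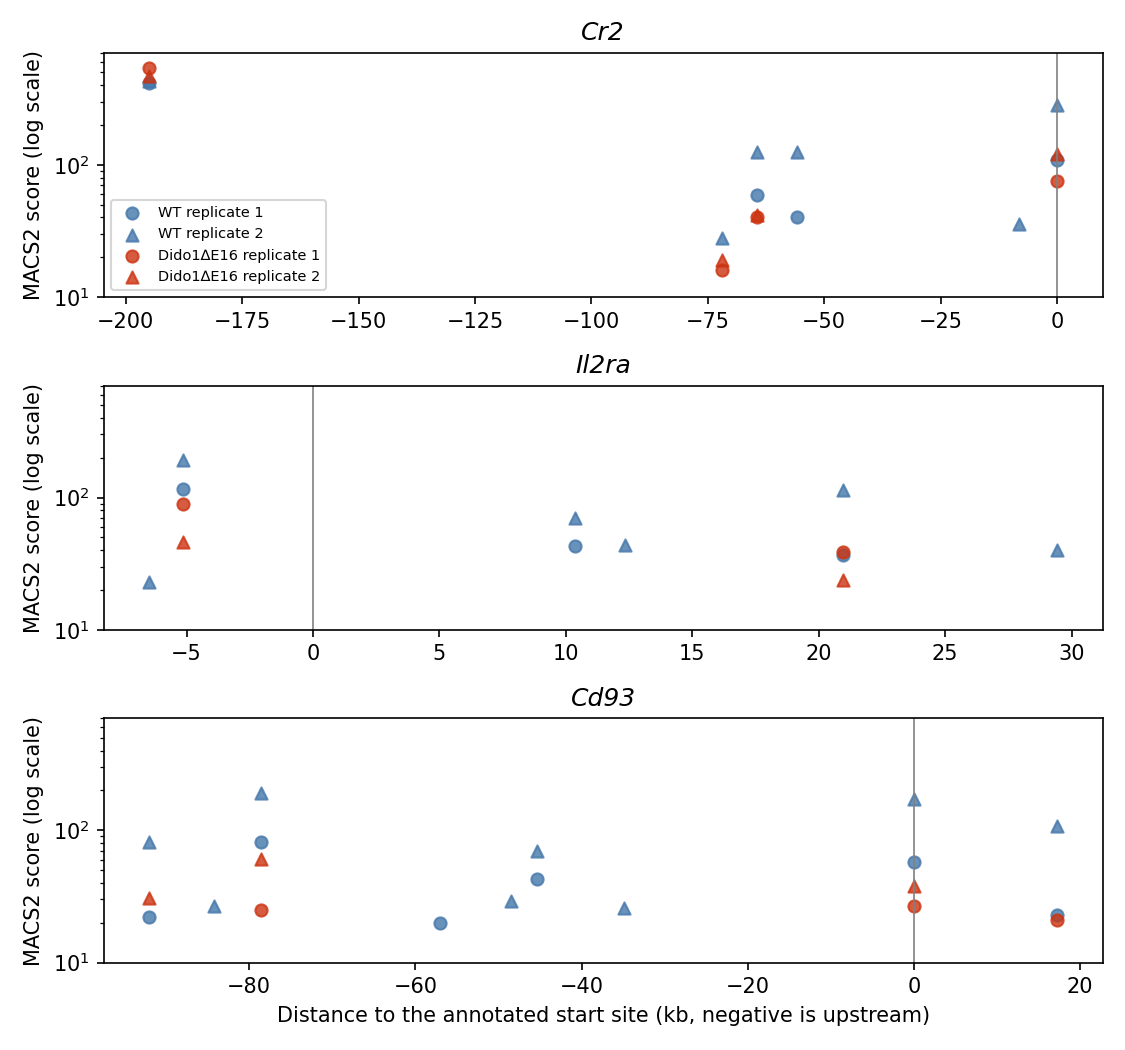
MACS2 score, on a log axis, of each peak annotated to Cr2, Il2ra and Cd93 against its distance from the annotated start in kb (negative is upstream), with WT in blue, Dido1∆E16 in red, circles for replicate 1 and triangles for replicate 2. The leftmost Cr2 points are the region at the end of the assembled chromosome, with scores from 416 to 539. The regions with blue points only are those without a MACS2 peak in Dido1∆E16.

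Of the shared WT intervals without a Dido1∆E16 MACS2 peak, 3 lay away from promoters in separate regions. The one of Cr2, 55.8 kb before the start, scored 40 and 125 in WT. The one of Il2ra, in its first intron and 10.3 kb after the start, scored 43 and 70. The one of Cd93, 45.4 kb before the start, scored 43 and 70. HOMER did give a Dido1∆E16 peak in each of these 3 regions, in replicate 1 for Cr2 and in replicate 2 for Il2ra and Cd93. The central 200 bases of each shared interval are shown, read from GRCm38.p6, the build of the files.
Cr2 upstream region, chr1:195232742-195232941, plus strand: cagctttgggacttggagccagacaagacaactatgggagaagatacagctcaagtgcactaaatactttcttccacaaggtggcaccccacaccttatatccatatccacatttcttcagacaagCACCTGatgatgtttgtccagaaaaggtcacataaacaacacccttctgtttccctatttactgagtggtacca
Il2ra intronic region, chr2:11653478-11653677, plus strand: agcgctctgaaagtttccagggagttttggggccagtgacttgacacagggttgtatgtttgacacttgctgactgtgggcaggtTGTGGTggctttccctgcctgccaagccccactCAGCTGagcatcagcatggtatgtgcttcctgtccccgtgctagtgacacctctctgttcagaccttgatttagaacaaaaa
Cd93 upstream region, chr2:148489051-148489250, plus strand: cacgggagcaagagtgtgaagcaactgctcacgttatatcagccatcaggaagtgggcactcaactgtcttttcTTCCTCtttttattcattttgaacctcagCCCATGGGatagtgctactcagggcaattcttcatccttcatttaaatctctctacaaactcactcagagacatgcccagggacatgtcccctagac
The Cr2 window held 1 CAGGTG match, which 13% of 24813 such windows held. The Il2ra window held 1 TGTGGT (19.3%) and 1 CAGCTG (14.6%), and the Cd93 window 1 GAGGAA (27.8%) and 1 CCCNNGGG (9.35%). TTCNNNGAA, which 5.09% of the windows held, was in none of the 3.

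The authors' lists of differential regions hold a tag value on a log2 scale for each library, and 9 of the 30 regions overlapped an entry. These entries were listed for a difference, so their values describe them and test nothing. At the Cr2 promoter the log2 tag values were 7.77 and 7.99 in WT and 6.94 and 6.72 in Dido1∆E16. At the Cr2 region 55.8 kb upstream they were 5.70 and 5.62 in WT and 4.77 and 4.32 in Dido1∆E16. The Il2ra region 10.3 kb into the gene had 5.99 and 5.94 in WT and 5.42 and 4.81 in Dido1∆E16. The Cd93 region 78.5 kb upstream, which had a peak in all 4 libraries, had 7.14 and 6.93 in WT and 5.74 and 6.26 in Dido1∆E16. Tags were thus fewer in Dido1∆E16 at these 4 regions also where a peak was still called, and none of the entries overlapped a region of Fcer2a, Cd40, Spn, Cd24a, Cd22 or Ms4a1.

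Set beside each other, the 2 readouts did not follow one pattern over the 9 genes. Cd93 and Il2ra had fewer MACS2 peaks in LSK cells in Dido1∆E16, and their pre-B levels overlapped between genotypes. Spn had no MACS2 peak in Dido1∆E16, though HOMER gave 1 in Dido1∆E16 replicate 2, and its pre-B level lay higher in Dido1∆E16. Cd24a had fewer MACS2 peaks and a lower pre-B level. Its HOMER peaks, 1 and 4 in WT and 1 and 1 in Dido1∆E16, overlapped between genotypes. So did those of Cd93 (5 and 15 in WT, 3 and 6 in Dido1∆E16) and Il2ra (4 and 6 in WT, 3 and 4 in Dido1∆E16). Fcer2a and Cd40, with the lowest and the highest log2 fold change in pre-B cells, had MACS2 peaks in 1 WT library only, while HOMER gave Cd40 1 peak in Dido1∆E16 replicate 1. The cells differ in stage and the libraries come from different mice, so no relation between them was tested.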

How the data were processed

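RNA-seq of 4 pre-B libraries and ATAC-seq of 4 LSK libraries were used. The 9 genes and all lists were chosen with earlier results of these data known. Each genotype has 2 labelled ATAC-seq libraries, where the study's methods give 3.

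The authors aligned RNA reads to mm10 with BWA-MEM (BWA 0.7.15 in the submitters' processing notes), which is not splice-aware, removed duplicates and ran StringTie on UCSC known genes. Each deposited file gives TPM, FPKM and coverage for every transcript, and coverage for every exon, but no counts, so depth in reads is unknown. Library strand is not given in the sources used here. The authors called peaks per ATAC-seq library with MACS2, with a deposited score, and with HOMER, and annotated them with ChIPseeker. Their deposited lists of differential regions hold log2 tag values per library, whose scaling is not given in the sources used here, and fold changes and p-values, which were not used. Their edgeR tables hold the authors' own comparisons and served only to name transcripts.

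The authors' tables name 30124 of the 63753 transcripts listed in all 4 libraries, and lacked the main transcripts of Cd40 and Cd22. Names were therefore completed with GENCODE M21 genes on the same strand that hold at least 50% of a transcript's exonic bases (56380 named, and 97.4% of 29602 named by both matched). TPM was summed per gene. Log2(TPM + 1) of the 11871 genes with a mean TPM of at least 1, and of 16372 transcripts, was fitted by genotype with limma 3.58.1 in R 4.3.3 (eBayes with a trend, Benjamini-Hochberg over all genes or transcripts). A fold change on this scale understates that of low genes. Calls required the adjusted p to be below 0.05 and the log2 fold change to be 0.6 or more in size. MACS2 and HOMER peaks on the autosomes, X and Y were intersected by bedtools 2.31.1, with 1 bp as the smallest overlap. A peak list gives no read count, so the number of peaks depends on depth. The fit and the overlap rule were tested on simulated data. Named from other lists were genes called plus the 3 tested genes with the largest absolute change. Alternatives were another pseudocount (0.1), no filter, FPKM, median-centring, eBayes without a trend, a replicate block, HOMER peaks, equal numbers of peaks, a 10 kb window around the gene body, promoter peaks, an overlap of 50%, leaving out each library and, chosen after seeing the data, the authors' names alone. Figures were drawn with matplotlib 3.10.9 and tables made in pandas 2.3.3 (Python 3.11.15). A gene and a sequence are not reported here.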

Additional observations from a re-analysis of the deposited data

How the results depend on the processing

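The count of 0 called genes among the 9 held under every alternative run. The levels of 5 of 9 genes did not overlap between genotypes, beside 42.7% of all genes tested. That number was 5 of 8 on FPKM, 6 after median-centring and 4 of 8 with the authors' names alone. It was 6 to 8 when 1 library was left out, where 1 library then stood against 2. For FPKM, the authors' names and the fits without 1 library, the share of all genes was not computed. Those counts therefore cannot be read as a trait of the 9. Of 15 member transcripts tested 0 were called, and 0 to 1 when 1 library was left out. The 1 was uc009ggx.2 of Cd22, called without Dido1∆E16 replicate 1, where Dido1∆E16 replicate 2 alone (9.20 TPM) stood against 0 in WT. Values near 0 changed sign for Cd22 (-0.037) and Il2ra (-0.025) after median-centring, and over the fits without 1 library for Ms4a1 (-0.39 to 0.20), Cd22 (-0.055 to 0.15), Il2ra (-0.043 to 0.16) and Cd93 (-0.25 to 0.055). With the authors' names alone, a choice made after seeing the data, Dido1 was -1.01, where the unnamed uc008ojs.2 was left out, Cd22 was 0.96 ± 1.72 (SE) and Fcer2a was -1.27 (unadjusted p = 0.000757, limma adjusted p = 0.185).

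The count of 4 genes with fewer LSK peaks (35.6% of all genes) became 1 with HOMER peaks (19.5%). That 1 was Cr2, with 4 and 5 HOMER peaks in WT and 3 and 3 in Dido1∆E16. By HOMER the counts of Cd93, Il2ra, Cd24a and Spn overlapped between genotypes. The count was 0 with the same number of best-scoring peaks (7.14%) and 1 with promoter peaks only (11.3%). It was 4 to 8 when 1 library was left out, the 8 without WT replicate 1, when 74.1% of all genes had fewer. The 5 shared WT intervals without a Dido1∆E16 peak (43.7% of all shared intervals) became 0 of 14 with HOMER peaks (29.3%), 1 of 8 with best-scoring peaks (13.2%), 1 of 4 at promoters (14.997%), 3 of 12 with an overlap of at least 50% (46.6%) and 6 to 7 without 1 Dido1∆E16 library (57.9% for the 6 and 51.2% for the 7). The share of all genes or intervals is in parentheses, and it moved with these settings too. The cause was not tested.

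With the replicate number as a block, 0 genes and 0 transcripts were called among the 9. Over 11871 genes, the differences between replicates 1 and 2 of the genotypes had an r of 0.047. Replicate 2 held less aligned sequence than replicate 1 in WT (1121 against 1581 megabases) and in Dido1∆E16 (1173 against 1635). Its neutrophil and monocyte markers summed higher in WT (2247 against 266 TPM) and in Dido1∆E16 (9780 against 1117 TPM). Whether libraries of the same number shared a batch was not tested. With 2 pools or sorts per genotype, differences of the size of those of Cr2, Spn or Ms4a1 could not be resolved.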
